A study of Mus musculus with 4 samples.

Results

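Upper layer cortical excitatory neurons were examined in single-nucleus RNA sequencing of brains from 2-month-old female C57/BL6 mice, 2 wild-type (WT) and 2 *Csf1r*+/- (HET) libraries. A nucleus was taken as a member when it held *Slc17a7* and no *Gad1* or *Gad2*, and at least 4 unique molecular identifiers (UMIs, the counted molecules) of at least 2 of *Ccbe1*, *Stard8* and *Tmc1*. That sum also had to exceed the summed UMIs of *Rspo1*, *Foxp2*, *Syt6* and *Scn7a*. The rule gave 645 members among 52132 nuclei with 500 to 50000 UMIs, over 200 genes and under 5% mitochondrial UMIs, and among 19491 *Slc17a7*-positive, *Gad*-negative (excitatory) nuclei. HET mice carry 1 inactivated allele of *Csf1r*, the receptor for CSF-1 and IL-34, in every cell of the body. Both genotypes had the same age, sex and strain, and their nuclei were released without detergent and depleted of myelin. One more library per genotype is not analysed here.

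The cerebral cortex is built in layers. Neurons of layers 2 and 3 project mainly within the cortex, many of them through the corpus callosum, and use the vesicular glutamate transporter encoded by *Slc17a7*. *Cux2* and *Cux1* are homeobox genes of these upper layers, *Rorb* is best known from layer 4, and *Bcl11b*, *Fezf2*, *Tle4* and *Foxp2* mark the deep layers. *Csf1r* itself is a gene of microglia, the resident macrophages of the brain.

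The 4 libraries held 167 and 91 WT and 180 and 207 HET members (replicates 1 and 2 of each), with 2580508, 1127080, 3458054 and 3258145 UMIs in all. Median UMIs per member were 14341, 11243, 18611.5 and 13992, against 7674.5, 6447.5, 10158 and 8376 in all excitatory nuclei. WT replicate 2 therefore had the fewest members and the fewest UMIs, and its values are the least precise. No pair of libraries was a duplicate: a chi-square statistic of the counts, divided by its degrees of freedom, was 32.4 or more for each pair. Of the 645 member barcodes, 7 also occurred among the kept nuclei of another library, and 1 was a member in both HET libraries. In WT replicate 2, members also held more mitochondrial and ribosomal protein RNA than in the other libraries (2890 and 1542 in counts scaled to a common library total, CPM, against at most 1004 and 775), and values without that library are given where its high levels set a result. As a check of the labels, nuclei chosen by microglia markers had 876 and 913 CPM of *Csf1r* (WT) against 590 and 599 CPM (HET). Which part of the transcript the inactivated allele lacks, relative to the counted reads, is not given in the sources used here. The members themselves held almost none, with 0 and 1.77 CPM of *Csf1r* in the WT and 3.18 and 2.76 CPM in the HET libraries.

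The values that chose the members are given as a description. *Ccbe1*, whose secreted product is known from lymphatic growth, stood at 238 and 275 CPM (WT) against 210 and 288 CPM (HET). *Stard8*, a GTPase-activating protein gene, stood at 103 and 110 CPM (WT) against 93.7 and 97.9 CPM (HET). *Tmc1*, known as a channel gene of inner ear hair cells, stood at 67.0 and 68.3 CPM (WT) against 67.1 and 63.5 CPM (HET). In other excitatory nuclei the means were 33.9, 10.6 and 3.38 CPM. Most members passed through *Ccbe1* and *Stard8*: 372 had that pair only, 88 had *Ccbe1* and *Tmc1*, 33 had *Stard8* and *Tmc1*, and 152 (23.6%) had all 3 genes. *Rspo1*, *Foxp2*, *Syt6* and *Scn7a* were all at 0 in 532 members. At the edge of the rule, 48, 31, 32 and 49 members per library had exactly 4 UMIs, and 63, 45, 59 and 66 excitatory nuclei had 3 UMIs of at least 2 of the genes. *Cux2* stood at 245 CPM in the first set and at 252 CPM in the second, and *Rasgrf2* at 377 and 405 CPM, so nuclei on either side of the limit carried like levels of these genes. Nuclei with 4 or more UMIs of only 1 of the 3 genes, above the sum of the same 4 excluded genes, numbered 127, 122, 91 and 98 and differed more, with *Hs3st4* at 934 CPM against 137 CPM in the members.

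The label was then checked on genes that the rule did not use, again without a test because the cells were chosen on their own counts. *Cux2* was detected in 587 of 645 members (91.0%) and stood at 284 and 227 CPM (WT) against 296 and 247 CPM (HET). It averaged 113 CPM in all other excitatory nuclei, 204 CPM in 218 nuclei chosen by *Rspo1* and 23.1 CPM in 1915 nuclei chosen by *Foxp2* and *Syt6*. In nuclei chosen by oligodendrocyte markers, which should lack the gene, *Cux2* had a UMI in 13.9%. *Rorb* averaged 139 CPM in members and 1078 CPM in the *Rspo1* nuclei. *Fezf2* was at or below 1.55 CPM in every library. The levels of *Cux2*, *Rorb* and *Fezf2* thus went with the upper layer label, with *Rorb* present in 40.6% of members. Deep layer RNA was not absent. *Tle4* was detected in 44.0% of members and in 51.0% of the other excitatory nuclei, at a lower level in members (49.3 against 199.6 CPM). *Zfpm2*, a deep layer gene in the lists used here, averaged 240 CPM in members.

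**Figure D1:**
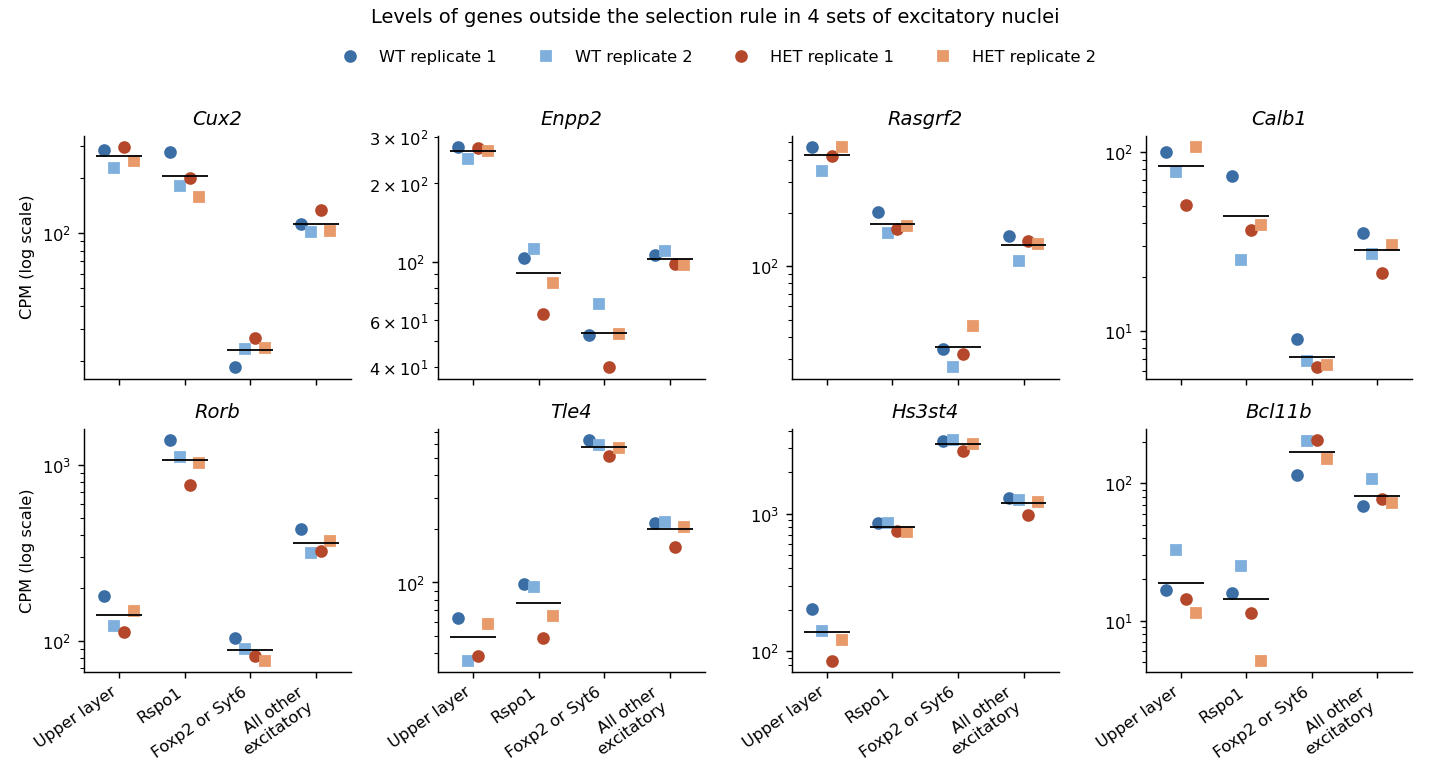
Levels in CPM (log axis) of 8 genes outside the selection rule, in 4 sets of excitatory nuclei. Points are the 4 libraries and the bar is their mean; *Cux2*, *Enpp2*, *Rasgrf2* and *Calb1* were highest on average in the upper layer nuclei, *Rorb* in the *Rspo1* nuclei, and *Tle4*, *Hs3st4* and *Bcl11b* in the *Foxp2* or *Syt6* nuclei.

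Of 5461 genes detected in at least 25% of members, 31 were at least 2-fold above the other excitatory nuclei in each of the 4 libraries. *Col19a1*, a nonfibrillar collagen gene, led them with 303, 287, 283 and 315 CPM in WT replicates 1 and 2 and the HET libraries, above a mean of 91.1 CPM in the others. *Rasgrf2*, a calcium-responsive activator of Ras known from layer 2 and 3 neurons, averaged 428 CPM against 132 CPM. *Gucy1a1*, a subunit of the nitric oxide receptor guanylate cyclase, averaged 96.5 CPM against 30.3 CPM. *Calb1*, the calcium buffer calbindin, averaged 83.8 CPM against 28.4 CPM, and ranged from 50.9 CPM in HET replicate 1 to 107 CPM in HET replicate 2. Further genes of this set were *Dgkb*, a diacylglycerol kinase (1385 against 563 CPM), the phosphodiesterase gene *Pde7b* (621 against 251 CPM), the adhesion gene *Nectin3* (244 against 85.1 CPM), *Gsg1l*, an auxiliary AMPA receptor subunit (204 against 79.3 CPM), *Enpp2*, which encodes autotaxin (266 against 103 CPM), and *Otof*, the otoferlin gene of vesicle release in hair cells (27.9 against 7.997 CPM). *Evc2*, *Igfn1*, *Epb41l2*, *Clec18a*, *Etnk2*, *Kcnh4*, *Prag1*, *Cdh7* and the unnamed locus *Gm48530* were also among the 20 with the largest fold in their weakest library.

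In the other direction, 57 of 4010 genes detected in at least 25% of the other excitatory nuclei were at most at 0.5 times their level there in each library. *Hs3st4*, a heparan sulfate sulfotransferase gene of deep layers, averaged 137 CPM in members and 1188 CPM in the others. *Thsd7b* averaged 37.1 against 295 CPM, the serotonin receptor gene *Htr1f* 38.5 against 249.8 CPM, and the kainate receptor subunit gene *Grik3* 22.6 against 169 CPM. *Bcl11b* and *Tle4* had 18.8 and 49.3 CPM in members against 81.3 and 199.6 CPM. The 6 hippocampal genes of the lists used here, *Nectin3* among them, were not lower on average in members. They summed to 911 and 508 CPM (WT) and 536 and 679 CPM (HET) in members, with *Trps1* the most abundant. In the other excitatory nuclei the sums were 739 and 558 CPM (WT) and 484 and 494 CPM (HET).

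RNA of other cell classes was low but present. Among microglia markers, *P2ry12* had the most (27.8 CPM, detected in 34.7% of members), and *C1qa* and *Cx3cr1* had 1.21 and 5.74 CPM. Of the astrocyte markers, *Gjb6* was at 0, *Gja1* and *Aqp4* stood at 0.221 and 0.963 CPM, and *Slc1a2*, which many neurons also transcribe, stood at 311 CPM. *Pdgfra* and *Cspg4* of oligodendrocyte precursors had 2 and 1 UMIs in all, and no library was above 11.2 CPM for 6 endothelial and mural genes summed. The 8 oligodendrocyte genes summed to 124 and 163 CPM (WT) against 146 and 77.3 CPM (HET), mostly from *Mbp*.

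Members were a larger share of HET than of WT nuclei as sequenced, but not at equal depth. They made up 1.04% (95% Wilson interval 0.891 to 1.20) and 0.597% (0.486 to 0.732) of the WT nuclei and 1.88% (1.62 to 2.17) and 1.85% (1.62 to 2.12) of the HET nuclei. The means were 0.817% ± 0.311 (SD, n = 2) and 1.86% ± 0.0184 (SD, n = 2), a ratio of 2.28. The libraries did not overlap, and an exact permutation test over libraries gave p = 0.3333, the smallest two-sided value that 2 against 2 allows. Without WT replicate 1 the ratio was 3.12, and without WT replicate 2 it was 1.80. Of the excitatory nuclei, members were 2.48% ± 0.958 in WT and 4.23% ± 0.134 in HET (SD, n = 2). The intervals cover counting error only.

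Depth differed between the genotypes, with median UMIs over all kept nuclei of 7454 and 6656 (HET) against 5490 and 4636 (WT). Its part in the share was not tested beyond a comparison at equal depth. After every nucleus was thinned to 4000 UMIs, with shallower nuclei left out, the rule found 15 of 10598, 11 of 8923, 5 of 7427 and 20 of 8667 nuclei. These shares were 0.142% and 0.123% in WT and 0.0673% and 0.231% in HET, so that the genotypes overlapped and their ratio was 1.13 (exact permutation p = 1). With a rule of 2 UMIs on the thinned nuclei, the means were 0.661% ± 0.0792 in WT and 0.662% ± 0.174 in HET (SD, n = 2). With so few nuclei left, no difference in the share of upper layer nuclei was detectable at equal depth. The genes detected per member were compared in the same way, and medians of 3693, 3512, 4278.5 and 3715 became 1715, 1812, 1729 and 1723.5 after thinning.

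**Figure D2:**
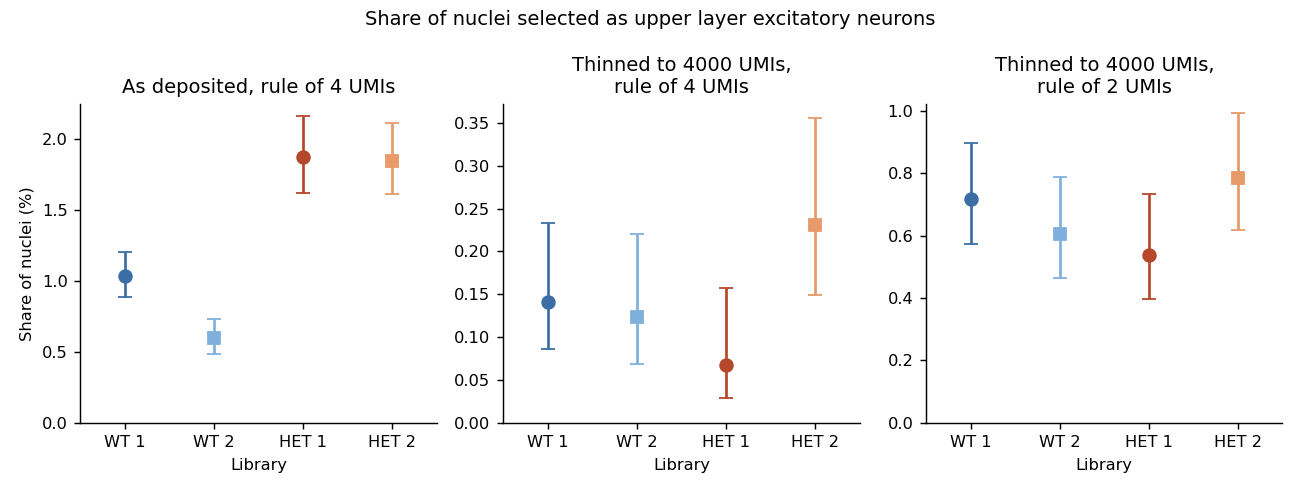
Share of nuclei selected as upper layer excitatory neurons in each library, in percent, with 95% Wilson intervals, as deposited and after thinning to 4000 UMIs. The HET libraries lay above the WT libraries at 1.88% and 1.85% before thinning and on both sides of them afterwards.

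Members were heterogeneous among themselves. Clustering of the 645 nuclei, without the genes of the rule and with each library centred, gave 6 subclusters of 161, 140, 119, 85, 77 and 63 nuclei. They are described by their leading genes, which are what the clustering used. Subcluster 1 was led by *Gm26883* and by *Tshz2*, *Zfp804b* and *Zfpm2*, 3 zinc finger genes, with *Zfpm2* at 548 CPM against 158 CPM in the remaining members. Subcluster 2 was led by *Gm765*, *Igfn1* and *Klhl1*, followed by the activity-related genes *Egr1* (46.4 against 20.4 CPM) and *Bdnf* (79.4 against 38.4 CPM). It had the highest *Cux2* (355 CPM) and the highest *Tmc1* (143 CPM). Subcluster 3 was led by *2600014E21Rik*, *Kctd8*, an auxiliary subunit of GABA-B receptors (308 against 76.0 CPM), and the BMP receptor gene *Bmpr1b*. Subcluster 5 was led by *Rorb* (505 against 93.4 CPM) and the muscarinic receptor gene *Chrm2* (262 against 54.2 CPM), with *Cux2* still at 231 CPM. Subcluster 6 was led by *Necab2* and the cation channel gene *Trpc6* (357 against 96.2 CPM), and also held *Angpt1*, a ligand of the TIE2 receptor (53.0 against 15.8 CPM).

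Subcluster 4 stood apart from the others. Its leading genes were *Ndst4* (255 against 3.04 CPM), *Sema5a*, *Galnt14*, *Sema3e*, *Thsd7b*, *Bcl11b* (63.9 against 5.61 CPM) and *Adarb2* (165 against 16.5 CPM), and its *Cux2* was the lowest, at 161 CPM. Of its 85 nuclei, 39 (45.9%) had high Scrublet scores, a measure of likeness to simulated doublets, against at most 1.86% in any other subcluster. Its median depth was 21054 UMIs. The 10 inhibitory genes summed to 385 CPM in it and to 51 CPM in the other members, and the 8 oligodendrocyte genes to 274 and 88 CPM. *Zbtb20*, of the hippocampal list, stood at 286 against 36.2 CPM. These genes go against the upper layer label. The 17 deep layer genes summed to 1119 CPM in subcluster 4, but also to 1142 CPM in subcluster 1, with *Zfpm2* the most abundant there, and to between 187 and 487 CPM in the other subclusters. Subcluster 4 held 18.6% and 16.5% of WT members and 8.33% and 11.6% of HET members, without overlap between genotypes (exact permutation p = 0.3333, the smallest possible). The genotype comparison of the leading genes was therefore repeated without it.

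The shares of the other subclusters were 18.5% ± 5.99 of WT and 28.2% ± 3.79 of HET members for subcluster 1, and 18.7% ± 1.54 and 23.3% ± 3.91 for subcluster 2 (SD, n = 2; exact permutation p = 0.3333 for each). For subclusters 3, 5 and 6 the genotypes overlapped. Subcluster 1 ranged from 14.3% in WT replicate 2 to 30.9% in HET replicate 2. Apart from the lower share of subcluster 4 and the higher shares of 1 and 2 in HET, no subcluster separated the genotypes at this resolution. In a finer clustering into 11 subclusters, those numbered 4, 7, 10 and 11 did not overlap between genotypes. Numbers 7 and 10 were higher and 4 and 11 lower in HET (exact permutation p = 0.3333 for each, the smallest possible). Number 7, of 46 nuclei, held 2.99% and 3.30% of the WT members against 7.78% and 11.6% (HET).

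**Figure D3:**
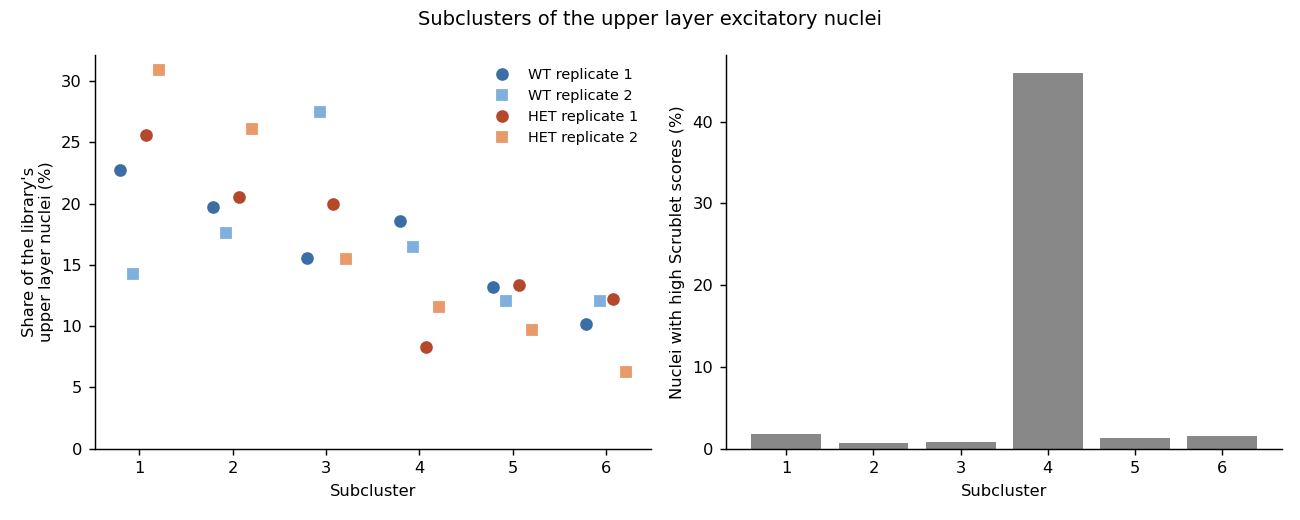
Left, share of each library's upper layer nuclei in the 6 subclusters, in percent. Right, percent of nuclei with high Scrublet scores by subcluster; subcluster 4 reached 45.9% and held less of the HET than of the WT members.

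The genotypes were compared on UMIs summed over the members of each library, with edgeR's quasi-likelihood test, in 9320 genes detected in at least 10% of members of either genotype. At the study's threshold, an unadjusted p below 0.01, 48 genes passed (0.515% of those tested), 7 higher (0.0751%) and 41 lower (0.44%) in HET. This balance rested on single libraries: the split was 77 higher and 67 lower without WT replicate 2, and 30 higher and 21 lower without HET replicate 1. None had an adjusted p below 0.05 (edgeR, Benjamini-Hochberg; 269 had an unadjusted p below 0.05), whereas edgeR's likelihood-ratio test gave 11 and DESeq2 4 such genes, all lower. The genotypes' libraries did not overlap for 2677 genes (28.7% of those tested), among them all 48 past the threshold. A lack of overlap therefore adds no support for a called gene. The share past the threshold was below 1% of the genes tested, the share that an unadjusted p below 0.01 gives when no gene differs. With the likelihood-ratio test, which is the study's own, 97 genes passed (1.04%), and without WT replicate 1 or 2 the shares were 1.59% and 1.54%. Single genes are therefore described by their values in each library. Each library is 1 mouse per the study's methods, and in such sums fewer nuclei that transcribe a gene and less RNA per nucleus cannot be told apart.

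The genes with the smallest p were lower in HET. *Dpyd* (mm10 chr3:118562129-119432924, plus strand), dihydropyrimidine dehydrogenase of pyrimidine breakdown, had 110 and 88.4 CPM (WT) against 29.8 and 32.5 CPM (HET), on the TMM scale that balances libraries. Its log2 fold change was -1.68 (SE 0.19, edgeR adjusted p = 0.105, n = 2 libraries a group). *Adarb2* (chr13:8202866-8768747, plus strand), an RNA-editing enzyme homolog known from a class of interneurons, had 91.0 and 69.7 CPM (WT) against 17.2 and 24.5 CPM (HET). The change was -1.97 (SE 0.24, edgeR adjusted p = 0.105). The summed inhibitory genes, of which it is one, were lower in HET in every set of excitatory nuclei compared here. *Cdh13* (chr8:118283733-119324921, plus strand), the GPI-anchored T-cadherin, had 143 and 185 CPM (WT) against 53.1 and 61.6 CPM (HET). It changed by -1.504 (SE 0.19; edgeR adjusted p = 0.105). Over the alternatives run, the edgeR or DESeq2 adjusted p ran from 2.07e-09 for *Dpyd*, 3.36e-09 for *Adarb2* and 1.38e-07 for *Cdh13* up to 0.99997 for *Dpyd* and 0.9997 for *Adarb2* and *Cdh13*, and the sign was negative throughout.

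The next of the lower genes were *Fras1*, an extracellular matrix gene (124 and 100 against 52.8 and 60.7 CPM), *Angpt1* (31.0 and 29.8 against 12.5 and 13.0 CPM), *Ano4* of the anoctamin family (124 and 108 against 65.4 and 64.4 CPM) and the LIM-only gene *Lmo3* (64.0 and 53.6 against 22.8 and 31.3 CPM). The long noncoding RNAs *6530403H02Rik*, *Gm13052* and *9530026P05Rik*, together with *Ttc28* and *Maml2*, a coactivator of Notch, completed the 12. Their log2 fold changes ran from -1.70 for *9530026P05Rik* to -0.84 for *Ano4*, each with an adjusted p of 0.988 or 0.999 by edgeR's quasi-likelihood test. *9530026P05Rik* was in 10.5% of WT and 6.202% of HET members, so it met the 10% filter only through the genotype where it was high, as did *Ndst4*, *Sema5a*, *Plcxd3*, *Parm1* and *Ndrg2* among the lower genes. Among the remaining lower genes were *Ndst4*, *Sema5a* and *Plcxd3*, which were among the leading genes of subcluster 4.

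The 7 higher genes included transcripts annotated as antisense. The share of such transcripts among all genes tested was not counted, so no excess of them is claimed. *4930545L23Rik* lies within *Plcb1*, *Gm15083* within *Atp2b2*, *4930587E11Rik* within *Cntn3*, *4930532I03Rik* within *Ppfia2* and *Gm15577* within *Negr1*. *4930545L23Rik* had 40.9 and 47.6 CPM (WT) against 77.9 and 78.9 CPM (HET) (log2 fold change 0.84, SE 0.18; edgeR unadjusted p = 0.00127, adjusted p = 0.999). *4930587E11Rik* had 43.7 and 65.5 CPM (WT) against 80.2 and 152 CPM (HET), with a change of 1.12, which was 0.58 without HET replicate 2 and 0.83 without WT replicate 1, neither past the threshold. *Gm15083* had 17.1 and 14.5 CPM against 30.3 and 34.4 CPM. Each of the 5 transcripts lost its call with at least 1 library left out, and *4930532I03Rik* moved from 0.81 to 0.54 without HET replicate 2. The changes of *4930545L23Rik* (0.72 to 0.95), *Gm15083* (0.91 to 1.16) and *Gm15577* (0.59 to 0.78) then stayed near their 0.84, 1.01 and 0.65. Without subcluster 4, *4930545L23Rik*, *Gm15083*, *4930587E11Rik* and *4930532I03Rik* passed, and *Gm15577* (0.70, edgeR unadjusted p = 0.0101) did not. Their host genes had log2 fold changes from 0.08 for *Negr1* to 0.21 for *Plcb1*, and none passed the test. Whether the counting used strand is not given in the sources used here, and without it reads of a host intron and of its antisense transcript cannot be told apart.

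*Zfpm2* (chr15:40655035-41104592, plus strand), a cofactor of GATA proteins and a deep layer gene in the lists used here, was also higher. It had 176 and 162 CPM (WT) against 254 and 370 CPM (HET) (log2 fold change 0.88, SE 0.20; edgeR adjusted p = 0.999). The 2 HET libraries differed more from each other than the lower one did from WT, and without HET replicate 2 the change was 0.57 and did not pass. *L3mbtl2*, a chromatin protein gene, had 4.37 and 4.25 CPM against 9.63 and 10.8 CPM. It was in 6.202% of WT and 15.5% of HET members, meeting the filter only through HET. Its call was lost with any 1 library left out, with DESeq2 and without subcluster 4. The log2 fold change of 1.23 stayed about as large there, at 1.14 to 1.32, 1.25 and 1.24. In members of at most 20000 UMIs it was 0.76 and did not pass.

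**Figure D4:**
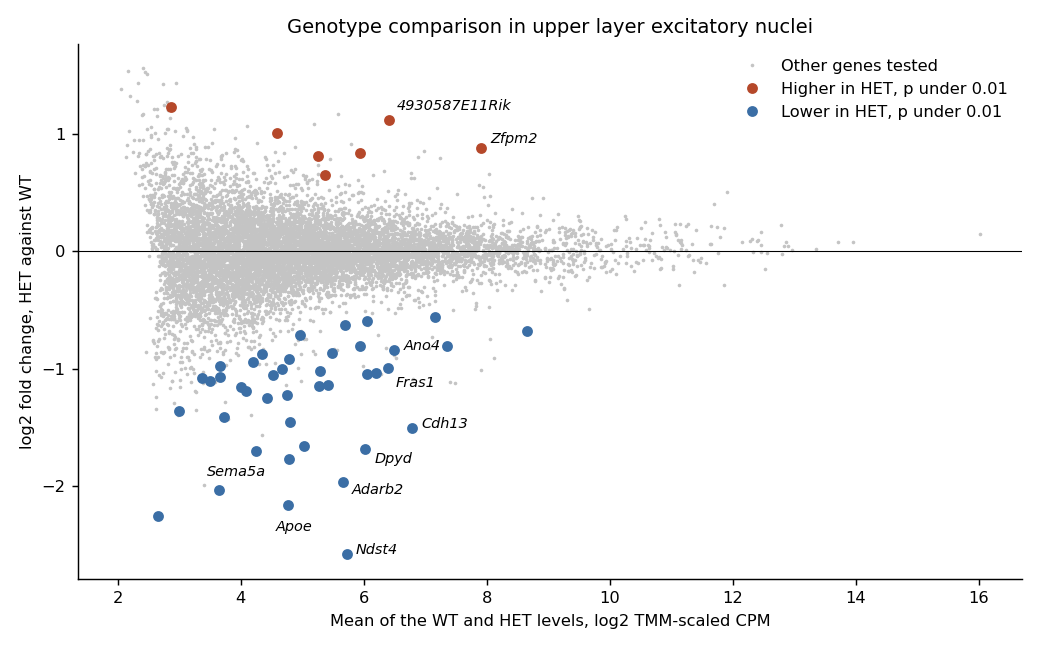
Log2 fold change of HET against WT for 9320 genes in upper layer nuclei (vertical axis) by mean level in log2 TMM-scaled CPM (horizontal axis). The 41 blue genes were lower and the 7 red genes higher in HET at an unadjusted p below 0.01.

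Subcluster 4 moved with the lower genes. Of the 41, 40 had a higher level inside subcluster 4 than in the other members and 28 were at least 2-fold higher there, against 50.7% and 1.70% of all genes tested. Of the 7 higher genes, 0 were higher inside it. The part of subcluster 4 in the genotype difference was not tested, but the difference was also measured without it. Among the remaining 560 members (an alternative chosen after the data were seen), 38 genes passed, 11 higher and 27 lower, and 19 of them were among the 48. Of the 35 lower genes still tested, 35 kept a negative sign and 14 passed. Of all 9097 genes tested both ways, 7938 kept their sign and 38 passed, and most nuclei are shared, so the kept sign is no independent support.

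*Dpyd* without subcluster 4 stood at 68.9 and 51.8 CPM (WT) against 28.2 and 19.6 CPM (HET), a log2 fold change of -1.33 (edgeR unadjusted p = 0.000621). *Cdh13* stood at 107.5 and 112 CPM against 47.6 and 52.6 CPM, a change of -1.10 (edgeR unadjusted p = 0.000119). For *Adarb2* the values were 24.4 and 32.6 against 12.6 and 10.0 CPM, a change of -1.26 (edgeR unadjusted p = 0.00184). When the 59 nuclei with 2 UMIs of *Adarb2*, *Slc17a6* or *Slc32a1* were left out instead, a choice made after the data were seen that lowers *Adarb2* by its construction, the change of *Adarb2* was -0.70 and did not pass. The values without subcluster 4 were, for *Zfpm2*, 154 and 160 against 258 and 370 CPM, a change of 1.03 (edgeR unadjusted p = 0.000619). The genotypes did not overlap for any of the 4 genes. *6530403H02Rik* (-0.81, from -1.04), *Lmo3* (-0.77, from -1.14), *Maml2* (-0.53, from -1.22) and *Ano4* (-0.48, from -0.84) no longer passed the threshold.

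Levels of these genes were also read within subclusters. *Dpyd* in subcluster 1 had 160 and 145 CPM (WT) against 53.8 and 31.8 CPM (HET). In subcluster 6 it had 103 and 115 CPM against 67.1 and 17.1 CPM, and in subcluster 4 it had 211 and 243 CPM against 40.3 and 93.01 CPM. *Cdh13* had 211 and 290.0 CPM against 95.2 and 89.5 CPM in subcluster 1, and 255 and 314 CPM against 131 and 159 CPM in subcluster 6. Both genes were rare in subclusters 2, 3 and 5, at no more than 22.2 CPM for *Dpyd* and 48.3 CPM for *Cdh13* in any library. *Zfpm2* in subcluster 1, where it was among the leading genes, had 233 and 326 CPM (WT) against 578 and 736 CPM (HET). In subcluster 6 it had 119 and 153 against 238 and 222 CPM. In subclusters 3 and 4 the genotypes overlapped for *Zfpm2* (157 and 184 against 135 and 327 CPM, and 221 and 206 against 193 and 354 CPM). In subcluster 2 *Zfpm2* was lower in HET without overlap (41.7 and 53.7 against 20.2 and 37.3 CPM), on 15, 10, 11 and 26 UMIs. In subcluster 5 the genotypes overlapped (155 and 76.0 against 88.6 and 65.8 CPM). *Adarb2* was lower in HET without overlap in subcluster 4 (264 and 222 against 53.7 and 93.01 CPM), 6 (49.4 and 53.6 against 28.0 and 11.4 CPM) and 2 (27.8 and 37.6 against 5.51 and 12.9 CPM). It overlapped between genotypes in subclusters 1 (30.4 and 14.5 against 15.5 and 6.96 CPM) and 3 (12.8 and 41.2 against 8.07 and 13.2 CPM), and was higher in HET in subcluster 5 (3.29 and 0 against 10.5 and 6.93 CPM). These values are descriptions. Some rest on few UMIs, such as *Dpyd* in subcluster 6 of HET replicate 2, with 3 UMIs.

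**Figure D5:**
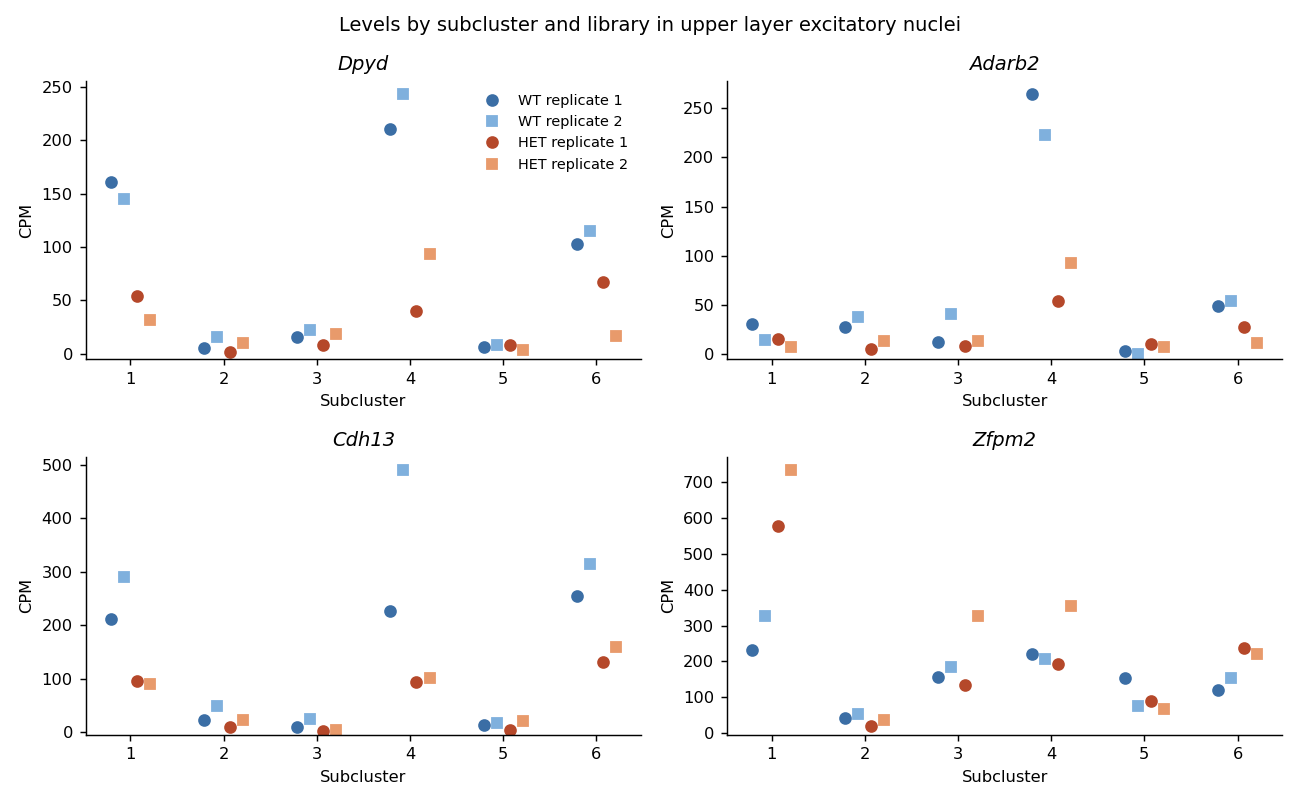
Levels in CPM of *Dpyd*, *Adarb2*, *Cdh13* and *Zfpm2* in each subcluster and library. In subclusters 1, 4 and 6 both HET points of *Dpyd* and *Cdh13* lay below both WT points, and *Zfpm2* reached 578 and 736 CPM in HET nuclei of subcluster 1.

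Whether the change differed from that in other excitatory nuclei was tested as an interaction, with the library as a term. Against all other excitatory nuclei, 72 genes passed an unadjusted p below 0.01 (0.773%) and 2 an adjusted p below 0.05. *Adarb2* was the first of these, with a difference in log2 change of -1.32 between members and the others (SE 0.15; edgeR adjusted p = 0.0127), the latter holding 248 and 160 CPM (WT) against 111 and 157 CPM (HET). For *Cdh13* the difference was -0.99 (SE 0.13; edgeR adjusted p = 0.0358), the others having 276, 286, 172 and 229 CPM. In the other nuclei the log2 changes of the pair were -0.60 and -0.49. *Zfpm2*, *Fras1*, *Dpyd* and *Htr2c*, a serotonin receptor gene, followed with adjusted p = 0.0556 each.

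Against the *Foxp2* or *Syt6* nuclei, in which *Hs3st4* averaged 3213 CPM, 94 genes passed (1.01%) and 8 had an adjusted p below 0.05 (edgeR). *Cdh13*, *Dpyd* and *Adarb2* led, with differences of -1.37, -1.5003 and -1.65. In those nuclei *Dpyd* stood at 88.4 and 66.1 CPM (WT) against 70.2 and 68.0 CPM (HET), so the genotypes overlapped there and did not in the members. Against the *Rspo1* nuclei, which have the layer 4 gene *Rorb*, 94 genes passed (1.01%) and 7 had an adjusted p below 0.05. *Zfp804b*, *Thsd7b*, *Htr2c* and *Parm1* led this comparison. Their log2 fold changes were 2.10, 1.16, 1.33 and 2.60 in the *Rspo1* nuclei and 0.66, -0.88, -1.15 and -1.07 in the members. The WT *Rspo1* nuclei held few counts of some of them, with 1 and 4 UMIs of *Parm1*. *Htr2c* stood there at 45.6 and 5.89 CPM (WT) against 71.4 and 72.9 CPM (HET), so WT replicate 2 lay far below the other libraries. The 3 comparisons share the member libraries. None was repeated without subcluster 4.

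Gene groups were described by counts and medians beside all 9320 genes, whose median log2 fold change was -0.0027 and of which 4697 were negative. The 18 tested genes of upper layers outside the rule (median 0.11) included none past the threshold, and *Plxnd1* and *Inhba* had the smallest p of those named here. *Cux2* had a log2 fold change of 0.10, with 292 and 218 CPM (WT) against 299 and 249 CPM (HET), and the genotypes overlapped. The only tested layer 4 gene, *Rorb*, had -0.22, which was 0.18 without WT replicate 1 and -0.48 without WT replicate 2. Of 10 tested deep layer genes (median -0.47, with *Foxp2*, a gene of the rule, among them), *Zfpm2* was higher and *Parm1* lower (19.5 and 14.5 against 7.59 and 8.98 CPM). The median of the deep layer genes was -0.18 without subcluster 4 and 0.06 after thinning to 4000 UMIs. *Foxp2* had the lowest change of the 10, -1.20, in 14.7% of WT and 6.98% of HET members. No median without it was computed. Of 7 pan-neuronal genes (median 0.04), none passed. The 3 hippocampal (median -0.17) and 2 subcortical glutamatergic genes (median -0.12) also had none, and the hippocampal median was 0.38 without WT replicate 1 and -0.55 without WT replicate 2.

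Of synaptic and excitability genes, 3 passed, beside 0.515% of all genes tested. None of 22 tested glutamate receptor genes (median -0.12) or 29 potassium channel genes (median 0.04) passed. Those with the smallest p were *Grm4*, *Grik3* and *Gria1*, and *Kcnk2*, *Kcnn3* and *Kcnd3*. *Gria1*, an AMPA receptor subunit, had 630 and 721 CPM (WT) against 525 and 562 CPM (HET). Of 26 synaptic adhesion genes (median -0.08), *Cntnap5c* (121 and 74.8 against 45.2 and 52.0 CPM) and *Cntn6* (179 and 162 against 122 and 110 CPM) fell. Of 35 axon guidance genes (median -0.06), *Sema5a* fell, with 23.0 and 17.0 CPM (WT) against 1.75 and 8.36 CPM (HET). Most of its UMIs lay in subcluster 4 (48, 16, 2 and 22), and outside it *Sema5a* stood at 5.30 and 4.50 against 1.30 and 1.85 CPM, in 3.93% of nuclei.

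Activity, clock and stress genes gave no call. The 15 tested immediate early genes had a median of 0.07, and none passed: *Fos* had 14.7 and 7.65 against 7.88 and 4.02 CPM, *Npas4* 14.7 and 5.10 against 18.1 and 21.7 CPM, and *Nr4a1* 42.9 and 26.4 against 62.4 and 40.9 CPM. Summed over the list of 24, HET replicate 1 was high at 1134 CPM, against 691 CPM in HET replicate 2 and 694 and 855 CPM in WT. Of 15 clock genes, 14 had a positive sign (median 0.43), led by *Ciart* (1.56), *Hlf* (0.61) and *Per2* (0.92), with no gene past the threshold. *Per2* was at 36.2 CPM in HET replicate 1 and 13.3 CPM in HET replicate 2, beside 11.1 and 16.2 CPM in WT, and the median of the list was 0.09 without HET replicate 1. The 11 genes of eIF2 and the integrated stress response had a median of -0.17 (*Hspa5*, *Eif2b5* and *Eif2ak3* with the smallest p), and 8 heat shock genes had 0.06 (*Hsp90aa1*, *Hspd1* and *Hspe1*). None of these 19 passed. The 6 nuclear long noncoding RNAs tested (median -0.06; *Mirg*, *Malat1* and *Snhg11*) had none either.

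Metal, ribosomal and mitochondrial genes turned on 1 WT library. *Mt1*, a metallothionein gene, stood at 5.96 and 28.9 CPM (WT) against 4.08 and 3.40 CPM (HET) (log2 fold change -1.995, SE 0.69; edgeR unadjusted p = 0.0194, adjusted p = 0.999). *Mt3*, the neuronal metallothionein, stood at 12.3 and 26.4 against 6.71 and 8.05 CPM (-1.28). WT replicate 2 was the high library for both. Without it *Mt3* had -0.73, and *Mt1* was no longer among the genes tested. Without WT replicate 1, which leaves that high library as the only WT library, the changes were -2.93 for *Mt1* and -1.83 for *Mt3*. Both also passed with edgeR's likelihood-ratio test (-2.14 and -1.31) and without subcluster 4 (-2.26 and -1.41), *Mt1* passed with DESeq2 and *Mt3* with the replicate block. *Mt1* was in 15.5% of WT and 6.202% of HET members, so it met the detection filter only through WT, where it was high. *Mt2* had at most 6 UMIs in a library and was not tested. Of 16 tested metallothionein and metal genes (median -0.11), none passed the quasi-likelihood test. The 64 ribosomal protein genes had a median of -0.57 with 62 negative, and the 11 mitochondrially encoded genes a median of -1.03 with all 11 negative, and none passed. Summed ribosomal CPM were 760 and 1542 in WT and 775 and 707 in HET members, and mitochondrial CPM were 830 and 2890 against 1004 and 734. Without WT replicate 2 these medians were -0.05 and 0.07. The 56 respiratory chain genes of the nucleus had a median of -0.11, and 0.09 without that library, with *Ndufa11*, *Sdhc* and *Ndufa4* at the smallest p.

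Genes of other cell classes were also compared. *Apoe*, the lipid carrier made mainly by astrocytes and microglia, had 23.0 and 67.2 CPM (WT) against 12.5 and 6.19 CPM (HET) (log2 fold change -2.16, SE 0.52; edgeR unadjusted p = 0.00294, adjusted p = 0.999). Without WT replicate 2 the change of *Apoe* was -1.27, and without HET replicate 2 it was -1.76 and no longer passed. Without subcluster 4 it was -2.10. *Aldoc*, an astrocyte aldolase, had 3.18 and 15.3 against 2.92 and 3.095 CPM (-1.34), and was not among the genes tested without WT replicate 2. It was in 10.1% of WT and 4.65% of HET members, meeting the detection filter only through WT. The 11 astrocyte genes summed to 349 and 416 CPM (WT) against 366 and 345 CPM (HET), mostly *Slc1a2*, and 4 were tested (median -0.97, and -0.31 without WT replicate 2). The 3 genes of oligodendrocyte precursors and the 6 of endothelial and mural cells had none tested. The 10 inhibitory genes summed to 162 and 185 CPM (WT) against 95.1 and 61.7 CPM (HET), with *Erbb4* the most abundant, *Gad1* and *Gad2* at 0 by the rule, *Slc32a1* at 0.781 CPM, and *Adarb2* and *Erbb4* tested (median -1.29). The same sums were lower in HET in the other sets too, with 411 and 426 against 224 and 261 CPM in all other excitatory nuclei, 209.6 and 200.2 against 74.0 and 69.7 CPM in the *Rspo1* nuclei, and 269 and 374 against 160 and 236 CPM in the *Foxp2* or *Syt6* nuclei. Of the oligodendrocyte and microglia genes, none passed. The part of RNA from other cells in these values was not tested.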

How the data were processed

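Per the labels and the paper's methods, the authors prepared Chromium 3′ libraries, and Cell Ranger 5.0.0 with mm10 gave the UMI counts. The deposited values are UMI counts, whole numbers per gene and nucleus, without normalization. Members and gene lists were chosen with earlier results of these data known. Counts were summed per library and tested with edgeR 4.0.16 (limma 3.58.1, R 4.3.3), with DESeq2 1.42.0 as an alternative; genes needed at least 10 counts. The 4 libraries' nuclei held 111488169, 88097109, 88147428 and 89314464 UMIs. Simulated 2-fold changes in 200 of 9320 genes passed p below 0.01 for 69.5%, and 4-fold changes for 99.5%. Doublets were not removed; high Scrublet scores were a library's top share, which grew with its number of nuclei. Clustering (scanpy 1.11.5, leidenalg 0.10.2, Python 3.11.15) used 2000 variable genes, 20 components, 15 neighbours and resolution 0.5. Comparison nuclei had at least 2 UMIs of *Rspo1*, or 4 of *Foxp2* and *Syt6* with both present, above the other rule genes. Named genes were the 20 of largest fold against other excitatory nuclei in their weakest library, those of the lists past p below 0.01 or else the 3 with the smallest p, up to 12 higher (7 existed) and 12 lower genes of smallest p whose libraries did not overlap, and 6 per interaction; *Ndrg2*, *Ndst4*, *Plcxd3* and some subcluster genes were named after their values were seen. Positions are from GENCODE M21, which held 99.6% of 31053 gene rows. Results of a few listed genes are not reported here.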

Additional observations from a re-analysis of the deposited data

Results flagged for a closer look

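A genotype effect that differed between upper layer nuclei and another set of excitatory nuclei is listed where the interaction had an adjusted p below 0.05 (edgeR's quasi-likelihood test, Benjamini-Hochberg over 9320 genes). Values are the log2 change of HET against WT in the members minus that in the other set. Against all other excitatory nuclei these were *Adarb2* (-1.32, adjusted p = 0.0127) and *Cdh13* (-0.99, adjusted p = 0.0358).

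Against the *Foxp2* or *Syt6* nuclei they were *Cdh13* (-1.37), *Dpyd* (-1.5003), *Adarb2* (-1.65), *Plcxd3* (-1.62), *Lmo3* (-1.12), *Ano4* (-0.81), *Sgcd* (-0.75) and *Zfpm2* (0.82), with adjusted p from 0.000498 for *Cdh13* to 0.0398 for *Sgcd* by edgeR. In the *Foxp2* or *Syt6* nuclei themselves the changes of these 8 genes lay between -0.33 for *Adarb2* and 0.05 for *Zfpm2*. *Plcxd3* met the detection filter in members only through WT, where it was high.

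Against the *Rspo1* nuclei they were *Zfp804b* (-1.46), *Thsd7b* (-2.15), *Htr2c* (-2.53), *Parm1* (-3.72), *Cdh18* (0.93), *Cdh13* (-1.27) and *6530403H02Rik* (2.96), with adjusted p from 9.75e-05 for *Zfp804b* to 0.0249 for *6530403H02Rik* by edgeR. In the *Rspo1* nuclei *Zfp804b* stood at 162 and 73.7 CPM (WT) against 435 and 616 CPM (HET), and *6530403H02Rik* at 39.4 and 41.3 CPM (WT) against 1.74 and 3.47 CPM (HET). These HET values of *6530403H02Rik* rest on very few UMIs. Only 35 *Rspo1* nuclei came from WT replicate 2, where *Htr2c* stood at 5.89 CPM against 45.6 CPM in WT replicate 1. *Parm1* met the detection filter in members only through WT, where it was high (12.4% of WT and 7.24% of HET members). No outlier test applied, since each group has 2 libraries.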

How the results depend on the processing

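The 48 genes past p below 0.01 became 97 with the likelihood-ratio test, 98 without the detection filter, 29 after thinning to 4000 UMIs and 44 to 149 with a library left out (149 without WT replicate 1, 144 without WT replicate 2). Adjusted p below 0.05 was reached by 0 genes, and by 11 with the likelihood-ratio test, 4 with DESeq2, 3 without the detection filter, 2 at a rule of 6 UMIs, 1 without high Scrublet scores, and 0 to 18 with a library left out (18 without WT replicate 1, 6 without WT replicate 2). It was also 1 without nuclei with 2 UMIs of *Adarb2*, *Slc17a6* or *Slc32a1*, a set chosen after seeing the data. The other settings stayed within 1.5 times, between 35 (DESeq2) and 66 genes. The HET minus WT share (1.05 points) was positive in each setting without thinning (0.828 to 1.27 with a library left out). After thinning to 4000 UMIs it was only 0.0166 points, 0.000433 points with a rule of 2 UMIs and -0.00864 points among excitatory nuclei. Genes per member went from 394 more in HET to -37.25 after thinning. Resolution 0.3 gave 3 subclusters and 1.0 gave 11. The interaction count of 72 became 121 with the likelihood-ratio test, and its 2 adjusted calls became 21, and 6 with library totals alone. The replicate block gave 38 genes (0 adjusted), and same-numbered libraries did not deviate together (r = -0.129 across 8619 genes), so the numbers were not taken as pairs; crossed numbers, chosen after seeing the data, gave 121 genes, 22 adjusted. Of the values of 23 named genes under alternatives, 310 kept their side of the threshold, 68 lost it, 17 gained it and none changed sign. Genes not tested under an alternative were not counted there. Most of the 23 were named for a small p, and the alternatives share most nuclei, so the kept signs are no independent support. With a library left out, the lone library of its genotype is assumed to vary like the other pair. Each group has 2 libraries, and WT replicate 2 had the fewest UMIs.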
